A study of Saccharomyces cerevisiae with 6 samples.

Results

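Transcripts of 45 budding yeast genes were compared between a wild-type strain and a strain without CBC2. The set holds 44 genes for the synthesis of histidine, of the branched-chain amino acids (isoleucine, valine and leucine), of the aromatic amino acids (tryptophan, phenylalanine and tyrosine), and of threonine, serine, asparagine and proline, together with GCN4. They were taken by symbol from the platform annotation, which names 5656 genes through a probe set (a group of short probes against 1 transcript), and every one of the 45 was present and passed the filter on dim probe sets, among 5257 genes tested. The strains were wild type (Y255) and the isogenic cbc2Δ strain (Y2685), each on 3 Affymetrix Yeast Genome S98 arrays. All 6 samples were total RNA of cells in SC (synthetic complete) medium, grown at 30 °C to log phase at an OD600 of 1. The labels give no further alleles, no cassette that replaced CBC2 and no clone number, and they do not say whether each sample had its own culture, and each p-value therefore reflects only how these samples vary, some of which may be technical.

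The product of CBC2 is the smaller protein of the cap-binding complex in the nucleus, which holds the 5′ cap of messenger RNAs as they are made. Yeast makes every amino acid from central metabolites, and most enzymes of these routes are under general amino acid control: amino acid shortage activates the kinase Gcn2, the GCN4 mRNA is then translated more, and the activator Gcn4 raises transcription of many synthesis genes together. Control of Gcn4 is mostly translational and by protein turnover, so the level of its mRNA does not report its activity. HIS3, LEU2 and TRP1 are also common auxotrophic markers of laboratory strains and may be altered by strain construction.

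Values below are normalised intensities, which are relative brightnesses after quantile normalisation, and they are not comparable between genes. A log2 change is deletion minus wild type, given with its standard error (SE), and a gene was called at a limma adjusted p under 0.05 over all tested probe sets. The label of the deletion strain held: CBC2 (YPL178W) had values of 882, 840 and 763 in the wild type and lay at the floor of 8.25 on each deletion array. Correlations of log2 values were 0.980 to 0.988 for arrays of the same strain and 0.951 to 0.969 for arrays of different strains. Wild-type replicates 1 and 2 went through fluidics station 1, the remaining 4 arrays went through station 2, and deletion replicate 2 was hybridised and scanned on a separate day.

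Of the 45 genes, 17 fell in the deletion strain, 1 rose and 27 were not called. Of all tested probe sets 31.4% were called, and of all tested genes 32.6%, 16.3% lower and 16.3% higher, against 37.8% lower and 2.22% higher among the 45. Their median log2 change was -0.39, beside 0.00 over all tested genes, and the changes ran from -1.74 to 0.48. Only HIS3 fell by more than 2-fold, and the other 16 changed by between -48.6% and -27.9%. All deletion arrays lay below all wild-type arrays for 21 of the 45 genes (25.7% of all tested genes) and above them for 2 (24% of all tested genes). Without the marker genes HIS3, LEU2 and TRP1, 15 of 42 genes fell, 1 rose and the median was -0.37.

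The size of these falls depended on how the arrays were scaled. Of the 45 genes, 35 belong to the brightest 25% of all tested genes by mean level, where quantile normalisation and scaling to one median differed most. In that bright group the members had a median change of -0.43 and all genes one of -0.04 after quantile normalisation. With arrays scaled to one median, the corresponding values were -0.12 and 0.18, so the members differed from all genes of the group by -0.38 with the first scaling and by -0.30 with the second. The number of called members went from 18 to 6 with one median (4 lower and 2 higher) and to 3 on the deposited scale, all lower. As shares these were 13.3% and 6.67% of the members, beside 33.1% and 9.67% of all genes tested under the same scalings. By direction, 13.5% of all genes were lower and 19.6% higher with one median, and 7.36% lower and 2.3% higher on the deposited scale. The larger share of lower calls among the members was therefore seen only after quantile normalisation and not under these 2 scalings. HIS3, LEU3 and TRP1 passed the test under each of these 3 scalings.

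**Figure D1:**
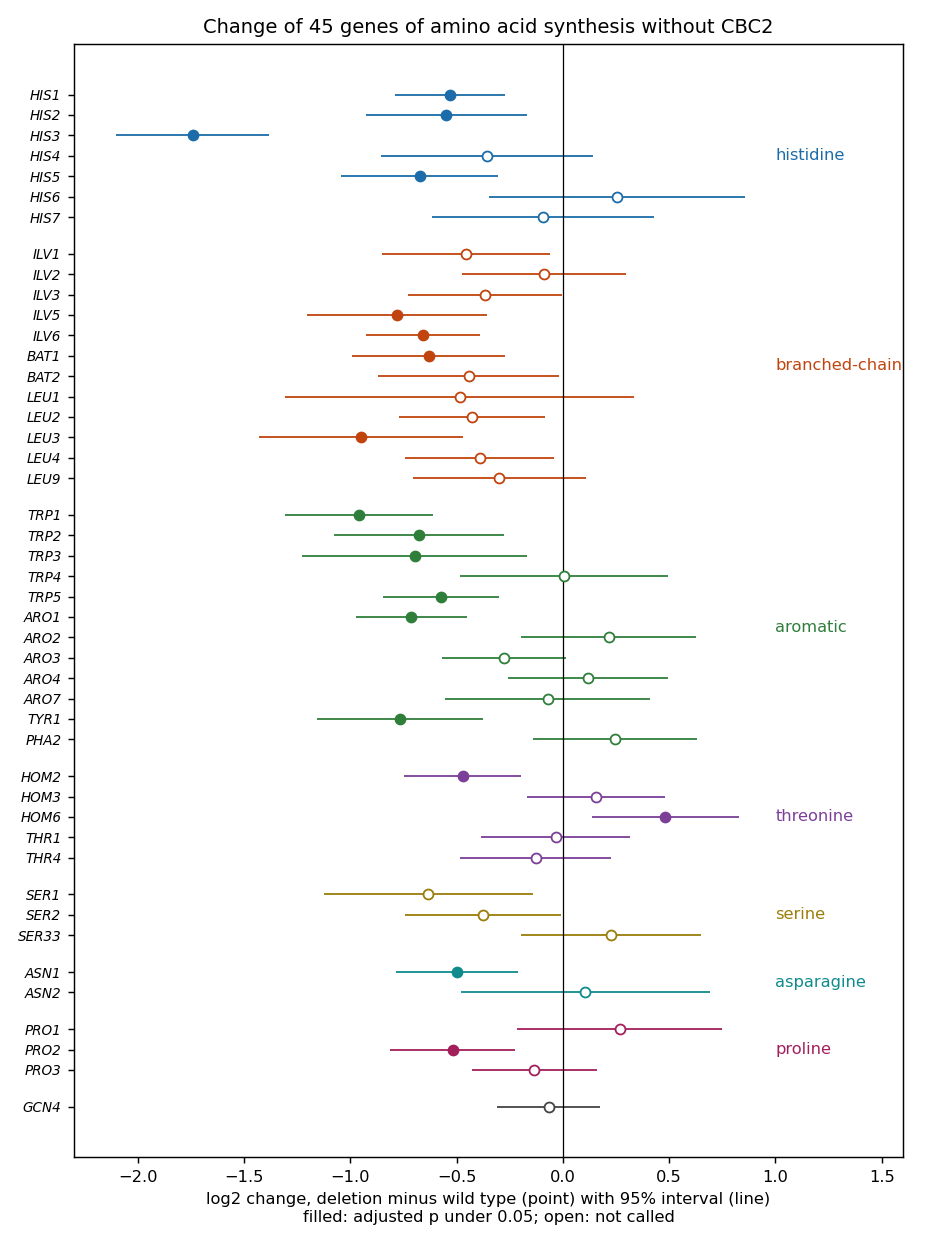
Log2 change (deletion minus wild type, horizontal axis) of each of the 45 genes, grouped by pathway, with the 95% interval of the fit as a line; filled points passed an adjusted p of 0.05 and open points did not. HIS3, at -1.74, lies apart from the other falls, and HOM6 is the 1 filled point to the right of zero.

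In the histidine pathway, 4 of 7 genes fell, 3 were not called and none rose, with a median of -0.53. The share lower was 57.1%, beside 16.3% of all tested genes lower and 32.6% called in either direction. With arrays scaled to one median, 1 of the 7 was called, beside 33.1% of all tested genes, and the median was -0.12. HIS3 (YOR202W), which encodes imidazoleglycerol-phosphate dehydratase, had values of 3372, 3197 and 3706 in the wild type and 839, 1199 and 1060 in the deletion strain. The strains were far apart on every array. Its log2 change was -1.74 (SE 0.16, adjusted p = 0.00018), and a separate HIS3 probe set gave -1.79 (SE 0.19, adjusted p = 0.00028). HIS1 (YER055C), for ATP phosphoribosyltransferase of the committed step, had wild-type values of 7979, 8140 and 7740 and deletion values of 5004, 6135 and 5434, with no overlap. It fell by 0.53 on the log2 scale (SE 0.12, adjusted p = 0.00805). The aminotransferase gene HIS5 fell by 0.67 (adjusted p = 0.0133) and the histidinol-phosphatase gene HIS2 fell by 0.55 (adjusted p = 0.0334). The HIS2 call was lost without wild-type replicate 2 or 3 or deletion replicate 1 or 3 (adjusted p = 0.079, 0.106, 0.0978 and 0.0816).

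The histidine genes that were not called had uneven replicates. HIS4 (YCL030C), whose product catalyses several steps of the pathway, had values of 8520, 9478 and 10276 in the wild type and 9151, 9005 and 4797 in the deletion strain. Only deletion replicate 3 lay below the wild-type range. The log2 change of HIS4 was -0.36 (95% interval -0.85 to 0.14, adjusted p = 0.251), and -0.05 without that array. HIS7, for the cyclase that takes nitrogen from glutamine, was at -0.09 (adjusted p = 0.79). HIS6, for the isomerase, was at 0.25 (adjusted p = 0.508), with wild-type values from 80.8 to 184.

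In the branched-chain pathways all 12 genes had negative log2 changes under quantile normalisation, and 4 of them fell: LEU3, ILV5, ILV6 and BAT1. The share called was 33.3%, all lower, close to the 32.6% of all tested genes called, of which 16.3% were lower and 16.3% higher. With arrays scaled to one median, ILV2, ILV3 and LEU4 were positive instead of negative (0.17, 0.08 and 0.03). LEU3 alone of the 12 was called with that scaling, beside 33.1% of all tested genes. The median was -0.45, and -0.22 with that scaling. LEU3 (YLR451W) encodes the transcription factor that controls several genes of leucine, isoleucine and valine synthesis in response to the leucine precursor isopropylmalate. Its values were 286, 264 and 269 in the wild type and 114, 197 and 125 in the deletion strain, without overlap. LEU3 fell by 0.95 (SE 0.21, adjusted p = 0.00909).

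Among the shared enzymes of isoleucine and valine synthesis, ILV6 (YCL009C), the regulatory subunit of acetolactate synthase, had the smallest p. Its values were 6733, 7218 and 7708 in the wild type and 4505, 5011 and 4209 in the deletion strain, and it fell by 0.66 (SE 0.12, adjusted p = 0.00325). ILV2, the catalytic subunit of the same enzyme, was at -0.09 (95% interval -0.47 to 0.29, adjusted p = 0.727). The reductoisomerase gene ILV5 fell by 0.78 (SE 0.19, adjusted p = 0.0126) and BAT1, for the mitochondrial branched-chain aminotransferase, fell by 0.63 (SE 0.16, adjusted p = 0.0155). The BAT1 call was lost without wild-type replicate 2 (-0.55, adjusted p = 0.0507). The dehydratase gene ILV3 (-0.37, adjusted p = 0.112), the threonine deaminase gene ILV1 (-0.46, adjusted p = 0.0755) and BAT2, for the cytosolic aminotransferase (-0.44, adjusted p = 0.103), were not called. ILV3 passed without deletion replicate 2 (-0.51, adjusted p = 0.0441), and ILV1 and BAT2 passed without deletion replicate 3 (-0.62 and -0.61, adjusted p = 0.0212 and 0.0295).

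The leucine branch enzymes were not called. LEU1 (YGL009C), for isopropylmalate isomerase, had wild-type values of 1234, 4428 and 3057 and deletion values of 1929, 1738 and 1814. Wild-type replicate 1 lay below every other array, while the deletion arrays lay within 1.11-fold of each other. Its log2 change was -0.49 (SE 0.37, adjusted p = 0.343), and without wild-type replicate 1 it was -1.03 (adjusted p = 0.00391). LEU4 and LEU9, the isopropylmalate synthase genes, were at -0.39 and -0.30 (adjusted p = 0.0814 and 0.238), and LEU4 passed without deletion replicate 2 (-0.56, adjusted p = 0.0183). LEU2, for isopropylmalate dehydrogenase, is given with the markers.

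In the aromatic pathways 6 of 12 genes fell and 6 were not called, with a median of -0.42 (-0.09 with arrays scaled to one median). The share lower was 50%, beside 16.3% of all tested genes lower and 32.6% called in either direction. Under quantile normalisation the calls were unevenly placed along the routes, a pattern that was not tested. With arrays scaled to one median 2 of the 12 were lower and 1 higher, beside 13.5% and 19.6% of all tested genes. On the deposited scale 1 of the 12 was called, beside 9.67% of all tested genes. ARO1 (YDR127W), whose single protein carries out several steps to chorismate, had values of 5920, 6465 and 6300 in the wild type and 3541, 3768 and 4102 in the deletion strain. The strains were well apart, and ARO1 fell by 0.71 (SE 0.12, adjusted p = 0.00199). The ARO1 call was lost with arrays scaled to one median and on the deposited scale. The synthases that feed this protein, ARO3 (inhibited by phenylalanine) and ARO4 (inhibited by tyrosine), were at -0.28 and 0.12 (adjusted p = 0.133 and 0.631), and the chorismate synthase gene ARO2 was at 0.22 (adjusted p = 0.404). ARO2 passed the test only with arrays scaled to one median (0.66, adjusted p = 0.0432).

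After chorismate, 4 of the 5 tryptophan genes fell, of which TRP1 alone kept its call with arrays scaled to one median. TRP5 (YGL026C), for tryptophan synthase, had values of 5286, 5132 and 5118 in the wild type and 3280, 3902 and 3294 in the deletion strain. It fell by 0.57 (SE 0.12, adjusted p = 0.00708). TRP2, for anthranilate synthase, fell by 0.68 (adjusted p = 0.0183), a call lost without wild-type replicate 2 or 3 or deletion replicate 3 (adjusted p from 0.0538 to 0.0722). Its partner TRP3, which also carries the indole-glycerol-phosphate synthase, was at -0.70 (adjusted p = 0.0478) and lost its call when any array but deletion replicate 3 was left out (adjusted p from 0.0505 to 0.113). TRP4, for anthranilate phosphoribosyltransferase, was at 0.01 (95% interval -0.48 to 0.50, adjusted p = 0.989). In the other branch, TYR1, for prephenate dehydrogenase on the way to tyrosine, fell from 557, 613 and 631 to 321, 315 and 435 (log2 change -0.76, SE 0.18, adjusted p = 0.00971). The chorismate mutase gene ARO7 (-0.07, adjusted p = 0.831) and the phenylalanine branch gene PHA2 (0.25, adjusted p = 0.308) were not called, although the deletion arrays of PHA2 all lay just above the wild-type arrays.

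**Figure D2:**
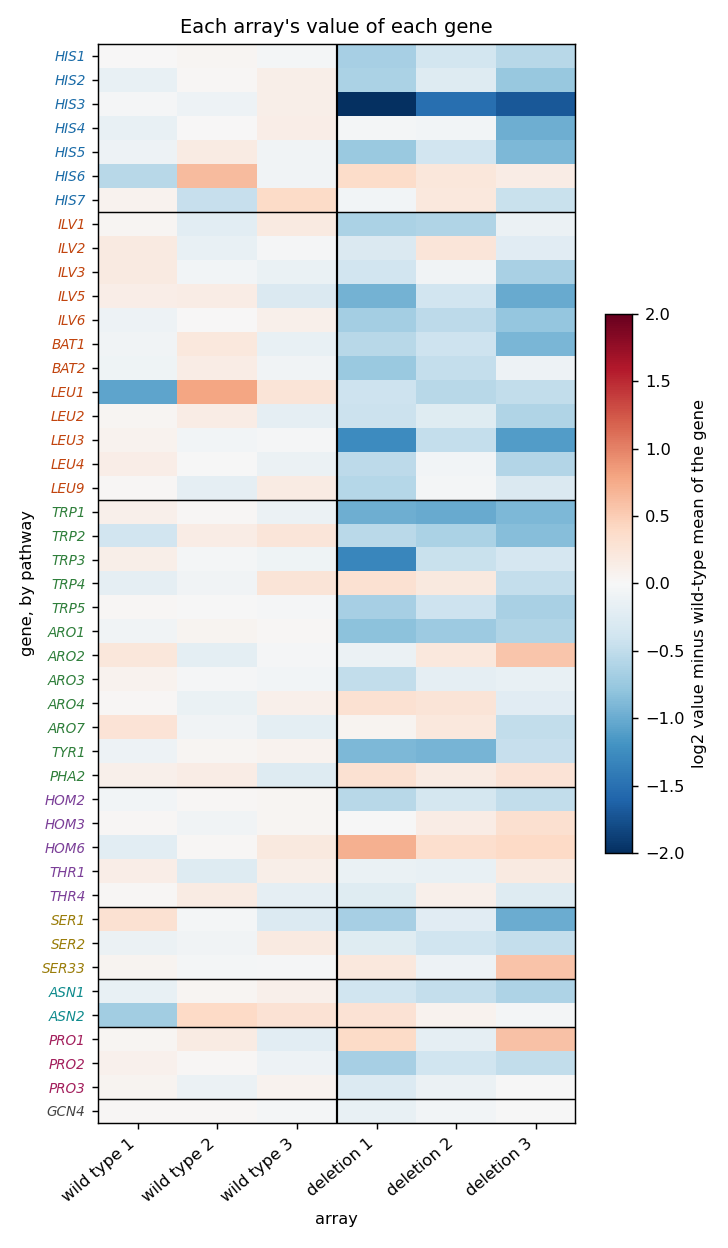
Log2 value of each gene on each array minus that gene's wild-type mean, as colour (red above, blue below), with the 45 genes in rows by pathway and the 6 arrays in columns. HIS3 and TRP1 are blue on all 3 deletion arrays, LEU1 and ASN2 are blue on wild-type replicate 1, and HIS4 is strongly blue only on deletion replicate 3.

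The threonine route, which starts from aspartate, held the 1 member that rose. HOM6 (YJR139C), for homoserine dehydrogenase, had values of 2582, 3053 and 3427 in the wild type and 4921, 3783 and 3946 in the deletion strain. The ranges did not overlap, and the log2 change was 0.48 (SE 0.16, adjusted p = 0.039). This call was lost without wild-type replicate 1 or 2 or deletion replicate 1 or 3 (0.35 to 0.51, adjusted p from 0.0533 to 0.149) and on the deposited scale (0.52, adjusted p = 0.326). HOM2, for the enzyme just before it, aspartate-semialdehyde dehydrogenase, fell from 3661, 3833 and 3880 to 2569, 2966 and 2681. Its change was -0.47 (SE 0.12, adjusted p = 0.0169), and the call was lost without wild-type replicate 3 or deletion replicate 1 (adjusted p = 0.0514 and 0.0677). The HOM2 call was also lost on the deposited scale and with arrays scaled to one median. The aspartate kinase gene HOM3 (0.16), the homoserine kinase gene THR1 (-0.03) and the threonine synthase gene THR4 (-0.13) were not called (adjusted p = 0.446, 0.893 and 0.577). The median of these 5 genes was -0.03, and 0.32 with arrays scaled to one median.

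None of the 3 serine genes was called, beside 32.6% of all tested genes. SER1, for phosphoserine aminotransferase, had values of 1851, 1451 and 1242 in the wild type and 939, 1273 and 749 in the deletion strain, and deletion replicate 2 overlapped the wild type. Its change was -0.63 (SE 0.22, adjusted p = 0.0516), and it passed without that array (-0.83, adjusted p = 0.0216). The phosphatase gene SER2 was at -0.37 (adjusted p = 0.108) and SER33, for 3-phosphoglycerate dehydrogenase, at 0.22 (adjusted p = 0.398).

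Of the asparagine synthetase genes, ASN1 fell from 4187, 4759 and 4974 to 3515, 3337 and 3001 (log2 change -0.50, SE 0.13, adjusted p = 0.0164). That call was lost without wild-type replicate 3 (-0.45, adjusted p = 0.0588), and also on the deposited scale and with arrays scaled to one median. ASN2 had wild-type values of 1023, 2194 and 2037 and deletion values of 2037, 1733 and 1612, with wild-type replicate 1 again the lowest array. Its change was 0.11 (SE 0.26, adjusted p = 0.788), and -0.25 without that array (adjusted p = 0.338). Of the proline genes, PRO2, for gamma-glutamyl phosphate reductase, fell from 3396, 3253 and 2996 to 2027, 2431 and 2282 (log2 change -0.52, SE 0.13, adjusted p = 0.0156). The PRO2 call was lost without wild-type replicate 1 or deletion replicate 1 (adjusted p = 0.0534 and 0.0636), and also on the deposited scale and with arrays scaled to one median. The kinase gene PRO1 of the step before (0.27, adjusted p = 0.377) and the reductase gene PRO3 of the last step (-0.13, adjusted p = 0.471) were not called.

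GCN4 (YEL009C) was among the most even members. Its values were 6271, 6271 and 6026 in the wild type and 5601, 5975 and 6156 in the deletion strain, which overlap. The log2 change was -0.07 (SE 0.11, 95% interval -0.31 to 0.17, adjusted p = 0.67), and 0.40 with arrays scaled to one median (adjusted p = 0.09). These values concern the mRNA alone.

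Related genes were followed in separate lists. Of 12 regulators of these pathways, 4 fell, 8 were not called and none rose, with a median of -0.22. The share called was 33.3%, all lower, beside 32.6% of all tested genes called and 16.3% lower. With arrays scaled to one median 3 were lower and 1 higher, on the deposited scale 2 were lower, and with the fluidics station as a block none was called. Of all tested genes, 33.1% were called with arrays scaled to one median, 9.67% on the deposited scale and 9.76% with the station as a block. ARO80, the activator of aromatic amino acid breakdown, had values of 99.1, 113 and 96.3 in the wild type and 38.6, 46.9 and 51.9 in the deletion strain. It fell by 1.17 (SE 0.20, adjusted p = 0.00232). The nitrogen regulator gene GLN3 fell by 1.02 (adjusted p = 0.00876), and the kinase gene GCN2 fell by 0.51 (adjusted p = 0.0324), a call lost without any 1 array other than deletion replicate 3.

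Of 17 genes of neighbouring steps and of breakdown, 10 fell, 3 rose and 4 were not called, with a median of -0.64. As shares, 58.8% were lower and 17.6% higher, beside 16.3% lower and 16.3% higher of all tested genes. With arrays scaled to one median 6 were lower and 3 higher (median -0.31), and both on the deposited scale and with the station as a block 4 were lower and none higher. The shares of all tested genes were 13.5% lower and 19.6% higher with one median. They were 7.36% and 2.3% on the deposited scale, and 4.77% and 4.98% with the station as a block. The 3 that rose under quantile normalisation were PRS4 (0.71, adjusted p = 0.014), ASP1 (0.68, adjusted p = 0.009) and PRS1 (0.58, adjusted p = 0.0234). CHA1, which breaks down serine and threonine, fell by 2.87 (adjusted p = 0.000167). ARO10, for the decarboxylase of aromatic amino acid breakdown, had wild-type values of 2897, 3612 and 2519 and deletion values of 1088, 1253 and 1138. It fell by 1.36 (SE 0.16, adjusted p = 0.000401). ARO9, for an aromatic aminotransferase that acts before it, fell by 1.42 (SE 0.19, adjusted p = 0.00075). Among the aromatic genes described here, ARO9, ARO10 and ARO80 had larger falls than any of the 12 synthesis genes, a difference that was not tested. These genes were named for their small p within their lists. ARO8, of the same list as ARO9, fell by 0.64 (SE 0.11, adjusted p = 0.00251), less than TRP1, TYR1 or ARO1.

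For comparison, 4 of 8 arginine synthesis genes fell and 4 were not called (median -0.34), and 2 of 9 lysine synthesis genes fell and 7 were not called (median -0.25). The shares called were 50% and 22.2%, all lower, beside 32.6% of all tested genes called and 16.3% lower. None of the 8 arginine genes was called on the deposited scale, with arrays scaled to one median (median -0.01) or with the station as a block. In these settings 9.67%, 33.1% and 9.76% of all tested genes were called. With one median 1 lysine gene was lower and 1 higher, with a median of 0.13, beside 13.5% and 19.6% of all tested genes. In the arginine list CPA1, for a carbamoyl-phosphate synthetase subunit, was at -0.48 (adjusted p = 0.0104), ARG7 at -0.61 (adjusted p = 0.0168) and ARG2 at -0.66 (adjusted p = 0.0269). The change of CPA1 was -0.01 with one median (adjusted p = 0.981). The ARG7 call was lost without deletion replicate 1, and the ARG2 call without wild-type replicate 1 or 3 or deletion replicate 1 or 3. In the lysine list LYS5, for the enzyme that activates Lys2, fell by 1.21 (adjusted p = 0.000552), and LYS14, for the pathway's transcription factor, was at -0.45 (adjusted p = 0.0427), a call lost whichever array was left out.

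Genes that can serve as strain markers included the largest fall among the 45. TRP1 (YDR007W), for phosphoribosylanthranilate isomerase, had values of 239, 226 and 206 in the wild type and 114, 111 and 119 in the deletion strain, the smallest spread between deletion arrays of any member. TRP1 fell by 0.96 (SE 0.16, adjusted p = 0.00197). LEU2 (YCL018W) had values of 1978, 2130 and 1704 in the wild type and 1425, 1624 and 1276 in the deletion strain. The ranges did not overlap, yet its change of -0.43 (SE 0.15, adjusted p = 0.0585) missed the threshold. LEU2 passed it only when the test was run per gene instead of per probe set (adjusted p = 0.0452), and 2 further LEU2 probe sets that may cross-hybridise gave 0.07 and -0.43 (adjusted p = 0.831 and 0.196).

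Among 5 other marker genes, ADE2 of purine synthesis fell by 1.95 (adjusted p = 0.000185) and the arginine permease gene CAN1 fell by 1.84 (adjusted p = 0.00028). URA3 (-0.07), LYS2 (-0.25) and MET17, also called MET15 (-0.05), were not called (adjusted p = 0.774, 0.448 and 0.845). Of the genes next to the markers, MRM1 beside HIS3 was at -0.51 (adjusted p = 0.0408, lost without wild-type replicate 1 or 3 or deletion replicate 1 or 3). DED1 on the other side of HIS3 was at -0.03 (adjusted p = 0.92), SOK1 beside TRP1 at -0.24 (adjusted p = 0.371) and NFS1 beside LEU2 at -0.36 (adjusted p = 0.174). GAL3, on the other side of TRP1, was too dim to be tested, and SUP53, a transfer RNA gene beside LEU2, had no probe set of its own. The labels do not say whether any marker allele differs between Y255 and Y2685, and the part of strain construction in the HIS3 and TRP1 values was not tested.

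**Figure D3:**
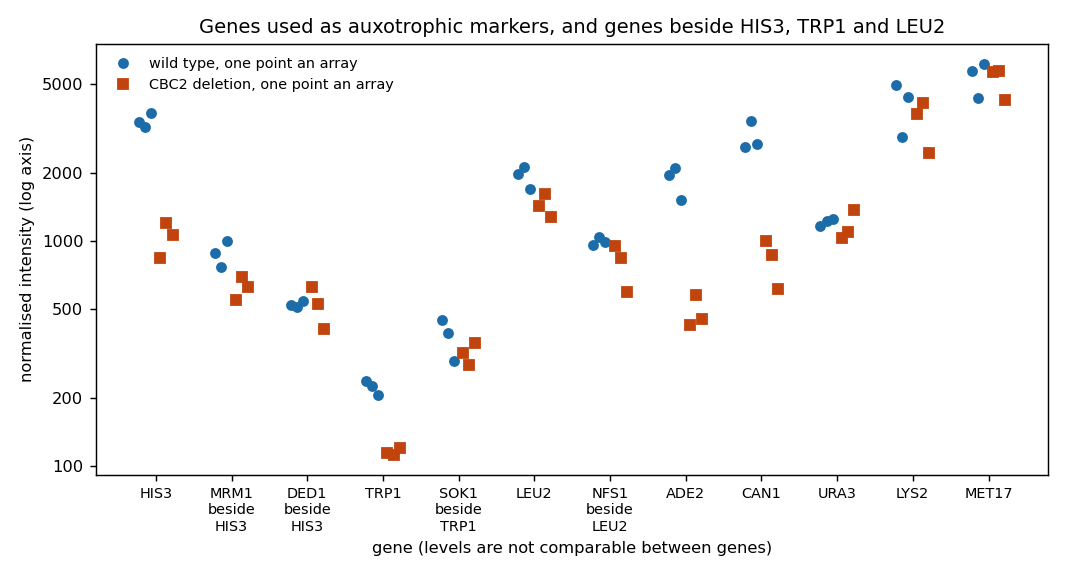
Normalised intensity on each array (log axis) of genes that can be auxotrophic markers and of genes beside HIS3, TRP1 and LEU2; circles are the 3 wild-type and squares the 3 deletion arrays. HIS3, TRP1, ADE2 and CAN1 are clearly separated between strains, whereas URA3, LYS2, MET17 and DED1 overlap.

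Several steps are encoded by isozyme pairs, and 5 pairs were asked whether their members changed unequally, with an exact two-sided permutation test of the log2 ratio per array. With 3 arrays against 3 this test cannot go below 0.1. The log2 ratio of SER3 to SER33, the 3-phosphoglycerate dehydrogenase genes, was 0.39, 0.53 and 0.38 in the wild type and -0.29, -0.18 and -0.58 in the deletion strain. SER3 itself fell by 0.56 (adjusted p = 0.0219, lost without wild-type replicate 1 or 2 or deletion replicate 1 or 2), and the ratio changed by -0.78 (exact p = 0.1, adjusted p = 0.25 over 5 pairs). For ASN1 and ASN2 the ratio changed by -0.60 with no overlap (exact p = 0.1, adjusted p = 0.25), which rests in part on the low ASN2 value of wild-type replicate 1 (-0.33 without that array). The ratio changed by -0.39 for ARO3 and ARO4 (exact p = 0.3, adjusted p = 0.5), by -0.19 for BAT1 and BAT2 (exact p = 1, adjusted p = 1) and by -0.09 for LEU4 and LEU9 (exact p = 0.5, adjusted p = 0.625), and in these 3 pairs the strains overlapped. The ARO3 and ARO4 value was -0.17 on the deposited scale and with one median. The signs for BAT1 and BAT2 and for LEU4 and LEU9 turned with the scaling (0.11 and 0.20 on the deposited scale and with one median).

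Array by array, the deletion strain's shift was smallest on the array run on a separate day. The median of the 45 genes, relative to each gene's wild-type mean, was -0.44, -0.23 and -0.48 on deletion replicates 1, 2 and 3. It lay within 0.02 of zero on each wild-type array, where centring on the wild-type mean holds it near zero. Deletion replicate 2 gave the highest deletion value for 20 of the 45 genes, and it was the highest for 33.0% of all tested genes. Within the day that holds the other arrays, without that replicate, the median was -0.44 and 20 of the 45 members were called. The same fit called 1861 of all 6956 tested probe sets. Within fluidics station 2, whose only wild-type array is replicate 3, the median was -0.42 and 3 members were called, HIS3 (-1.86, adjusted p = 0.00724), ILV6 (-0.76, adjusted p = 0.0325) and ARO1 (-0.73, adjusted p = 0.0377). These are 6.67% of the members, beside 9.76% of all tested genes called in the same fit. The fit assumes that the lone wild-type array varies like the others, whose spread it pools. The part of the day and of the station in the remaining differences was not tested further.

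**Figure D4:**
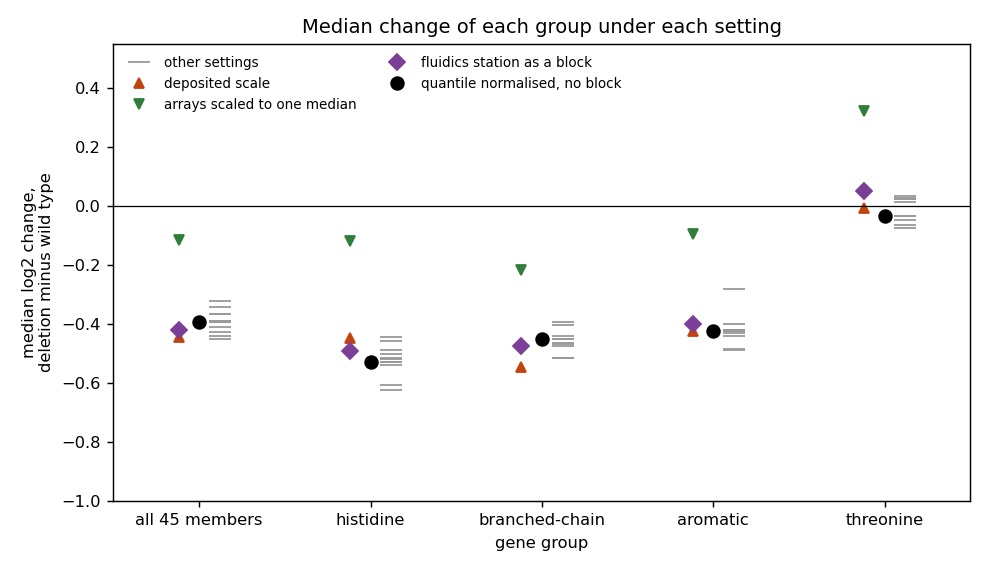
Median log2 change (vertical axis) of all 45 genes and of 4 pathway groups under quantile normalisation (black circle), on the deposited scale (upward triangle), with arrays scaled to one median (downward triangle), with the fluidics station as a block (diamond) and under the other settings (grey dashes). The median of the 45 genes is below zero in each setting, from -0.45 to -0.12, while that of the threonine genes lies on either side of zero.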

How the data were processed

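Transcript levels were measured on 6 single-channel arrays, 3 per strain, grouped by the sample titles. The authors deposited an intensity on a linear scale for each of 9335 probe sets. How the authors summarised or scaled them is not given in the sources used here. Trimmed means (2% at each end) of the deposited intensities differed 1.88-fold between arrays, above the 1.2-fold limit set for quantile normalisation, which was therefore applied. It makes the arrays' distributions equal, so a global shift of mRNA would not be seen. Values under the 10th percentile (8.25) were raised to it before log2. After removal of 60 control probe sets and of the dimmest 25% of the others, 6956 were tested.

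Strains were compared with limma 3.58.1 in R 4.3.3 (lmFit, eBayes with an intensity trend) with p-values adjusted by Benjamini-Hochberg over the 6956. The fit was first run on simulated data with independent noise and far fewer changed probe sets than were called here. That run was a check of the code and does not show how the fit behaves with these arrays. The number of arrays limits the precision (median SE 0.20). Station, module and run day came from the deposited run information files, whose other entries per the file headers are instrument settings.

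The annotation gave 6504 probe sets 1 symbol, 328 several and 2503 none, and all 6504 were matched by gene ID to assembly R64, used for names and gene order. A gene was read from the brightest of its probe sets that carry no cross-hybridisation suffix, as all 45 members were, and 43 of them had 1 probe set. The members, lists and tests were chosen with earlier results of these data known. Named were all members, CBC2, SER3, the genes next to HIS3, LEU2 and TRP1, and 5 further marker genes. From each other list up to 3 called genes of smallest p were named. ARO8, PRS4, ASP1 and PRS1 were named in addition. The ARG5,6 entry was not analysed here. Sequences and promoter motifs were not used here.

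Also tried were the values as deposited, arrays scaled to one median, a floor at the 5th percentile, a pseudocount of 16, no filter on dim probe sets or the dimmest 50% left out, other variance models, array weights, a mean of probe sets per gene, blocks for replicate number, station and day, and leaving out each array.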

Additional observations from a re-analysis of the deposited data

How the results depend on the processing

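Over 20 settings, none of the 18 called members changed sign. HIS3 alone kept its call in all of them, and the other 17 lost it in at least 1. Called probe sets went from 2187 to 728 on the deposited scale, 2230 with arrays scaled to one median and 675 with the station block. Called members went from 18 to 3 on the deposited scale, 6 with one median and 3 with the station block. The members' median went from -0.39 to -0.12 with one median, and relative to all tested genes from -0.40 to -0.19 on either linear scale. On the deposited scale the median of all tested probe sets was -0.27, against -0.01. Below the median of all genes lay 35 members after quantile normalisation and 27 on either linear scale. Leaving out each array gave 1500 to 1964 called probe sets, 13 to 20 called members and medians from -0.44 to -0.32. The isozyme differences then ranged from -0.38 to 0.13 for BAT1 and BAT2, -0.23 to 0.018 for LEU4 and LEU9, -0.61 to -0.20 for ARO3 and ARO4, -0.81 to -0.33 for ASN1 and ASN2 and -0.86 to -0.66 for SER3 and SER33. The first 2 pairs also turned on the deposited scale and with one median (0.11 and 0.20). Of the members not called, 16 had the other sign in at least 1 setting, always without a call, and 8 gained a call in at least 1.

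Equal replicate numbers were not treated as pairs in the main fit. The deviations of same-numbered arrays correlated at -0.23, -0.09 and 0.08. As they are centred within 3 arrays a strain, these values cannot tell whether same-numbered samples were prepared together. With the replicate number as a block, 1911 probe sets and 16 members were called, at a median of -0.39; HIS2, TRP3 and HOM6 lost their calls and SER1 gained one. A block cannot alter the isozyme differences in this balanced design, and no paired p was computed for them. With 3 arrays a strain, the 95% intervals of 2 members not called still include a fall of 1 on the log2 scale. No group was large enough for a test of single outlying arrays.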
